A study of Oryza sativa with 12 samples.

Results

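CHS1 (LOC4350636) and GSTF1 (LOC4325710) are rice genes for chalcone synthase and for a phi-class glutathione S-transferase. They are 2 of the 17905 genes that the platform's gene table assigns to probe sets of the Affymetrix rice array, and they were chosen because drought raised both in Bala leaves and not in Azucena leaves. Their drought responses, the difference between those responses and the levels behind them are therefore given as a description, without a test. The table lists 5 probe sets for CHS1 and 1 for GSTF1.

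Chalcone synthase joins a coumaroyl-CoA unit from the phenylpropanoid pathway to malonyl-CoA units and so makes naringenin chalcone, the first compound of the flavonoid pathway. Flavones, flavonols and anthocyanins, which screen ultraviolet light, quench reactive oxygen and colour leaves and grains, all derive from it. Upstream, phenylalanine ammonia-lyase (PAL) and 4-coumarate-CoA ligase (4CL) supply the coumaroyl-CoA, and downstream chalcone isomerase (CHI) closes the ring. Glutathione S-transferases couple glutathione to reactive or foreign molecules. In Arabidopsis and petunia, phi-class members are needed for anthocyanins to collect in the vacuole, a role not given for rice GSTF1 in the sources used here.

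Field-grown plants of Bala, an upland indica cultivar, and Azucena, an upland tropical japonica cultivar, were sampled with and without drought, in 4 groups of 3 arrays: Bala under drought, Bala in flooded control plots, Azucena under drought and Azucena in flooded control plots. All plots were first flooded, and drought plots had no water from day 59 after sowing until leaves were cut on day 83, after 24 days. Each sample was a bag of leaf middle sections pooled over the plants of 1 field block, from more plots per block under drought than in control. Each array gave 1 signal for each of 57381 probe sets. The median signal was 9.6 to 12.4, and the highest of 33 negative control probe sets, used here as background, lay between 13.4 and 28.3. Most marker genes of photosynthetic leaf tissue were bright, with RBCS (small subunit of Rubisco) at group means of 4537 to 7944. From the same list of 9, RBCS1 was not above background on any array and FBA2 on only 2 of 12. The anther and flower genes C6, RTS, MADS3 and MADS58 were not above background on any array. MADS16 and a MADS2 locus, which also belong to that list of 8, were above background on all 12 arrays. The number of arrays limits the precision of every value below.

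CHS1 was bright in Azucena with or without drought, near background in flooded Bala, and bright in Bala under drought. Its brightest probe set had signals of 3584, 3650 and 3320 in Bala under drought, against 46.5, 31.3 and 22.8 in flooded Bala. In Azucena it had 2632, 2672 and 2281 under drought, against 2507, 3466 and 2100 in flooded plots. The flooded Bala arrays thus stood alone, more than an order of magnitude below the other 9 arrays, and each was still above its own background. Its highest group mean was that of Bala under drought. The signal lay at the 99.2 to 99.4 percentile of all probe sets of an array in Bala under drought and at the 62.7 to 71.3 percentile in flooded Bala. In Azucena it lay at the 98.7 to 98.8 percentile under drought and at 98.5 to 99.2 in flooded plots.

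On the log2(signal + 16) scale, where changes of dim genes come out too small, CHS1 changed by 6.18 with drought in Bala (SE 0.2 from 3 arrays a group), a 72.7-fold difference, and by -0.06 in Azucena (SE 0.22). In such bulk leaf samples fewer cells of a type and less RNA per cell cannot be told apart. Its group means were 3518 ± 174 in Bala under drought and 33.5 ± 12 in flooded Bala, and 2529 ± 215 in Azucena under drought and 2691 ± 701 in flooded Azucena (SD, n = 3 each). Under drought every Bala array was above every Azucena array, by 0.48 on the log2 scale. The SE of that difference was 0.083 from these arrays and 0.184 in the limma fit to all 12 arrays. In flooded plots Bala lay below Azucena (log2 difference -5.77, SE 0.29). The descending order of group means was Bala drought, flooded Azucena, Azucena drought and flooded Bala. The signals of the flooded Azucena arrays overlapped those of Bala under drought and of Azucena under drought, so only the place of flooded Bala was clear of its neighbour in that order.

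**Figure D1:**
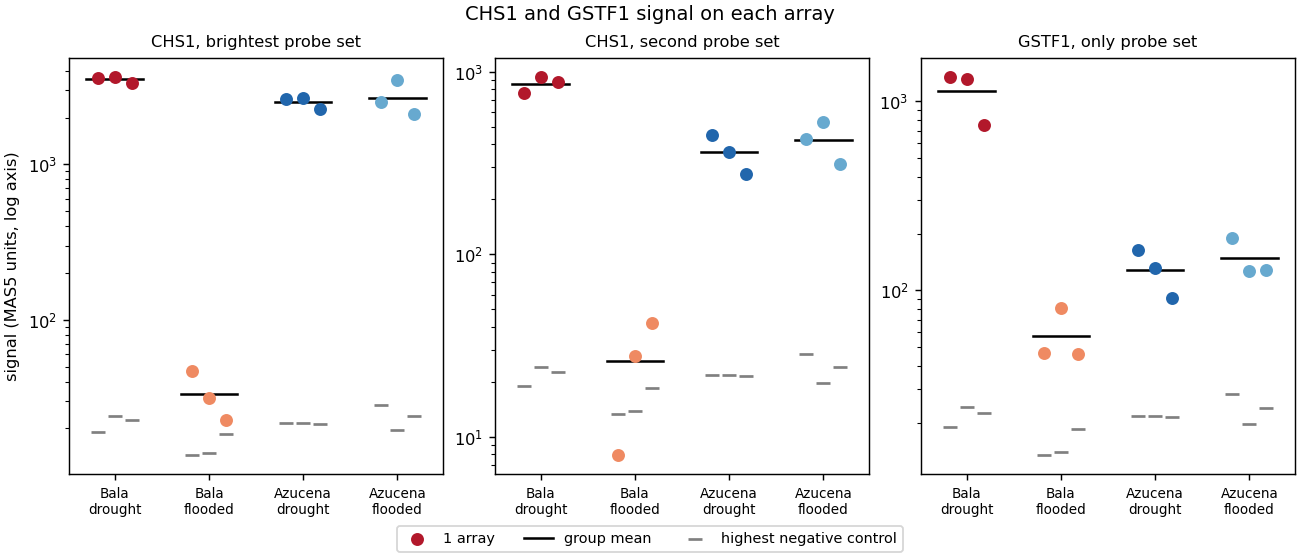
Signal (log axis) of the brightest and the second CHS1 probe set and of the GSTF1 probe set on each of the 12 arrays, with group means as black bars and each array's highest negative control as a grey dash. Only the flooded Bala arrays fall near background for CHS1, and only the Bala drought arrays stand high for GSTF1.

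The other 4 CHS1 probe sets were dimmer and ran in the same direction in Bala. The second brightest had 766, 935 and 874 in Bala under drought, against 7.9, 27.6 and 42.1 in flooded Bala, where the first of these arrays was below background. In Azucena it had 449, 363 and 274 under drought, against 425, 531 and 311 in flooded plots. Here Bala under drought exceeded Azucena under drought by 1.23 on the log2 scale (SE 0.22), more than the 0.48 of the brightest probe set. The same gene thus gave a Bala excess under drought of different size on different probes.

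The remaining 3 CHS1 probe sets were at or under background on every flooded Bala array and reached means of only 31.4 to 56 in Bala under drought, so their differences are lower bounds. In descending order of that mean they were at least 3.69-fold, at least 2.36-fold and at least 2.06-fold higher in Bala under drought than in flooded Bala. The first of these had 49.8, 63.8 and 54.5 in Bala under drought, against 0.4, 1.1 and 0.8 in flooded Bala. In Azucena it had 18.9, 11.3 and 8.9 under drought, against 4.7, 25 and 2.2 in flooded plots. It stayed at or under background on all arrays of Azucena under drought, and there Bala was at least 2.58-fold higher. In all 5 CHS1 probe sets and in that of GSTF1 the Bala drought arrays lay above all flooded Bala arrays, which held for 28.1% of the 33476 probe sets tested. In none of the 6 did the Azucena drought arrays separate from the flooded ones, while 22.6% of all probe sets separated upwards and 19.2% downwards. In flooded plots 4 of 5 CHS1 probe sets and GSTF1 had all Bala arrays below all Azucena arrays (24.9% of all probe sets), and under drought all 6 had all Bala arrays above (20.6%). In 2 of those 4, the dimmest in flooded Bala, at most 1 of the 6 flooded arrays was above background, so their order there carries no level. All 6 passed the filter on dim probe sets, which a probe set could pass through 1 group alone, and since the genes were chosen on these arrays the counts describe the choice.

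**Figure D2:**
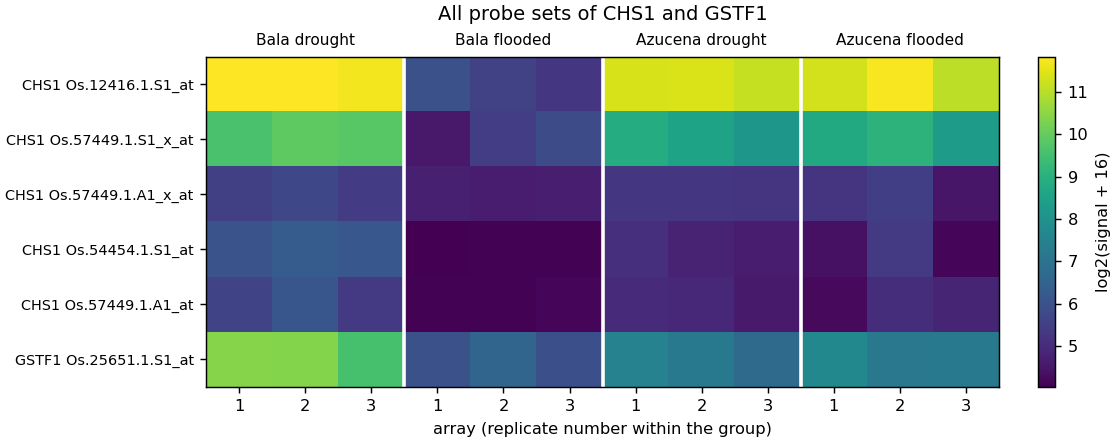
Heat map of log2(signal + 16) for the 5 CHS1 probe sets and the GSTF1 probe set on the 12 arrays, grouped by cultivar and condition. The brightest CHS1 probe set is dark on the 3 flooded Bala arrays only, while GSTF1 is bright on the 3 Bala drought arrays only.

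GSTF1 had another pattern, with a low signal in 3 groups and a high one in Bala under drought. Its signals were 1346, 1316 and 750 in Bala under drought, against 46.8, 80.4 and 45.9 in flooded Bala. In Azucena they were 163, 131 and 90.8 under drought, against 188, 126 and 129 in flooded plots. The lowest Bala drought array was thus still well above the highest array of any other group, and all 12 arrays were above background. The log2 change with drought was 3.95 in Bala (SE 0.34), a 15.5-fold difference, and -0.19 in Azucena (SE 0.28). Group means were 1137 ± 336 in Bala under drought and 57.7 ± 19.7 in flooded Bala, and 128 ± 36.1 in Azucena under drought and 148 ± 35.3 in flooded Azucena (SD, n = 3 each). In the order of means, Bala drought came first, then flooded Azucena and Azucena drought, whose arrays overlapped, and flooded Bala last, with every array below those of Azucena under drought.

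Both genes thus met the rule by different routes. For CHS1 the cultivars differed most in flooded plots, and under drought Bala lay slightly above Azucena. For GSTF1 the cultivars differed most under drought, where Bala exceeded Azucena by 2.98 on the log2 scale (SE 0.35), a 7.91-fold difference, while in flooded plots Bala lay below Azucena (log2 difference -1.16, SE 0.27). The Bala response exceeded the Azucena response by 6.25 for CHS1 (SE 0.3) and by 4.15 for GSTF1 (SE 0.44). Ranked among the 15608 genes tested, these were the second and the 11th highest differences of responses. In the Bala response alone CHS1 ranked 22 and GSTF1 ranked 81, in the cultivar difference under drought GSTF1 ranked 39 and CHS1 2047, and in flooded plots CHS1 was 17th from the lowest. The median change of all probe sets tested was 0.13 in Bala and 0.03 in Azucena on the same scale, far below both Bala changes.

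**Figure D3:**
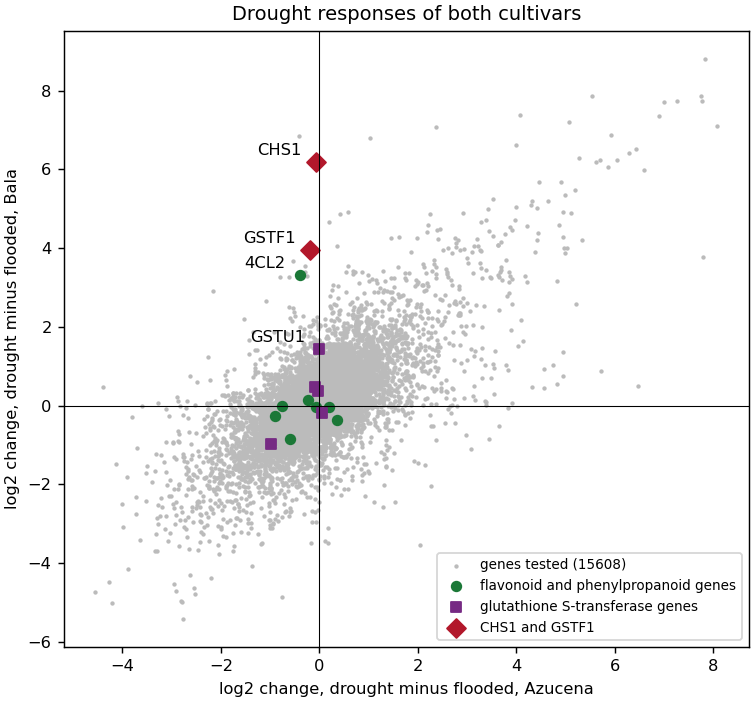
Log2 change with drought in Azucena (horizontal) and in Bala (vertical) for the 15608 genes tested, with CHS1 and GSTF1 as diamonds, other flavonoid and phenylpropanoid genes as circles and other glutathione S-transferase genes as squares. CHS1, GSTF1 and 4CL2 lie near 0 in Azucena and at 6.18, 3.95 and 3.32 in Bala.

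Marker genes of several tissues also changed with drought. Of 8 photosynthesis genes tested, 2 rose and 4 fell in Bala (limma), where 27.4% of all genes rose and 14.1% fell. In Azucena 1 rose and 4 fell, where 18.2% of all genes rose and 17.4% fell. The summed signal of the 9 photosynthesis genes on the array was 26330 to 27740 in Bala under drought and 31360 to 36940 in flooded Bala. For Azucena the sum was 26220 to 29320 under drought and 32210 to 38540 in flooded plots. Both root genes tested, NAAT1 and NAS3, which serve iron uptake, fell in Bala (limma, adjusted p = 1.2e-05 and 0.034) and in Azucena (0.0035 and 2.1e-06). NAAT1 was above background on all 12 arrays of these leaf samples, at group means of 1022 to 3082. NAS3 had means of 5.27 in Bala under drought and 28.9 in flooded Bala, and 21.2 in Azucena under drought and 273.5 in flooded Azucena. NAS1 and NAS2 were not above background on any array. Of 5 vascular and secondary wall genes on the array, 4 were tested, and all 4 (CESA4, CESA7, CESA9 and a BC1 locus) rose with drought in Bala (limma, adjusted p between 2.4e-05 and 0.005), as did 27.4% of all genes tested. The Bala response exceeded the Azucena response by 2.10 for CESA4 (adjusted p = 0.0064), 1.74 for CESA7 (0.027) and 1.53 for the BC1 locus (0.026), while the difference of 0.37 for CESA9 was not called (0.57). The flooded Bala means of these 4 genes were 1.1 to 10.8, under that group's background of 13.4 to 18.5, so these sizes are not exact. The BC1 locus and CESA9 reached means of only 26.3 and 25 in Bala under drought. In Azucena none was called (limma, 1 higher at an unadjusted p under 0.05). The summed signal of the 5 genes was 169 to 378 in Bala under drought and 18.3 to 34.1 in flooded Bala, and 84.9 to 126 in Azucena under drought and 32.1 to 173 in flooded Azucena. The other BC1 locus was not above background on any array. The part of these markers in the changes of CHS1 and GSTF1 was not tested. Among the senescence genes SGR, NYC1 and NOL, which act in chlorophyll breakdown, SGR rose in Bala (log2 change 3.39, limma adjusted p = 4.4e-06) and all 3 rose in Azucena (adjusted p between 8.6e-05 and 0.012), where 18.2% of all genes rose. The ratio of 3′ to 5′ actin signal was 6.15 to 6.93 in Bala under drought and 5.68 to 8.01 in flooded Bala, and 6.56 to 6.74 in Azucena under drought and 6.77 to 7.51 in flooded Azucena. Its ranges overlapped in Bala, and in Azucena the drought arrays lay just below the flooded ones.

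Part of the pathway around CHS1 was read from a list of 11 genes named for flavonoid or early phenylpropanoid enzymes. Besides CHS1, 8 were tested: PAL, PAL06, 4CL1 to 4CL5 and CHI. CHS2 and ANS2 (anthocyanidin synthase) had no probe set in the table and were not analysed here. No gene was found by symbol for cinnamate hydroxylase, flavone synthase, dihydroflavonol reductase or flavonol synthase. No step after CHI was therefore read. With drought in Bala 1 of the 8 rose, namely 4CL2 (27.4% of all genes tested), and 1 fell, namely 4CL1 (14.1%). In Azucena none rose (limma, 0 also at an unadjusted p under 0.05, against 18.2% of all genes) and 3 fell, namely CHI, 4CL1 and 4CL5 (17.4%). The median log2 change of the 8 was -0.04 in Bala, where that of all genes was 0.18, and -0.31 in Azucena, where that of all genes was 0.03.

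4CL2, a 4-coumarate-CoA ligase gene like 4CL1 and 4CL3 to 4CL5, was the exception among these listed genes. It had the same order of group means as CHS1 at a much lower signal. It had 107, 203 and 186 in Bala under drought, against 0.3, 1.5 and 3 in flooded Bala. In Azucena it had 68.6, 87.7 and 94 under drought, against 136, 144 and 74.1 in flooded plots. All flooded Bala arrays were under background, so its rise in Bala was at least 10.5-fold (log2 change 3.32, adjusted p = 1.9e-08, limma with Benjamini-Hochberg adjustment), while the Azucena change of -0.39 was not called (adjusted p = 0.26). The Bala response was larger than the Azucena response by 3.72 (adjusted p = 3.7e-06). In flooded plots 4CL2 was at least 7.49-fold lower in Bala than in Azucena (adjusted p = 6.8e-08). Under drought it was 0.83 higher in Bala (adjusted p = 0.018), a call that was lost without Bala drought 2 (adjusted p = 0.1), Bala drought 3 (0.071) or Azucena drought 1 (0.071).

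CHI, the next enzyme after chalcone synthase, did not follow CHS1 in Bala. It had 912, 1077 and 1036 in Bala under drought, against 980, 1061 and 993 in flooded Bala, a log2 change of -0.01 (adjusted p = 0.98). In Azucena it fell to 546, 609 and 650 under drought, against 957, 1222 and 920 in flooded plots, a log2 change of -0.76 (adjusted p = 0.00052). The difference of responses was 0.75 (adjusted p = 0.019), a call that needed Azucena control 2 (adjusted p = 0.06 without it), Azucena drought 1 (0.05, rounded down) and Bala drought 2 (0.062). Under drought CHI was thus 0.73 higher in Bala than in Azucena (limma, adjusted p = 0.00075).

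PAL and PAL06, the genes of the entry enzyme found by symbol, showed no called change with drought. PAL, the first enzyme of the phenylpropanoid pathway, had a log2 change of 0.15 in Bala (adjusted p = 0.71) and of -0.24 in Azucena (adjusted p = 0.54), and PAL06 one of -0.03 in Bala (adjusted p = 0.96) and of -0.07 in Azucena (adjusted p = 0.91). 4CL1 fell in both cultivars, by at least 1.43-fold in Bala (adjusted p = 0.0015) and at least 1.18-fold in Azucena (adjusted p = 0.021). It was under background on every drought array. Its flooded Azucena signals of 23.6, 28.3 and 24.6 were already near their backgrounds of 28.3, 19.6 and 24. The Azucena call was lost without Azucena control 2 (0.07) or Azucena drought 2 (0.075). 4CL5 fell in Azucena to 110, 97.4 and 132 under drought, against 150, 268 and 269 in flooded plots (log2 change -0.89, adjusted p = 0.0046), and its Bala change of -0.26 was not called (adjusted p = 0.4). 4CL3 and 4CL4 had changes of -0.04 and -0.37 in Bala and of 0.19 and 0.36 in Azucena, none of them called. In the difference of responses 4CL2 and CHI were called higher in Bala (9.82% of all genes) and no gene lower (limma, 1 at an unadjusted p under 0.05, against 5.13%). In flooded plots 2 of the 8, 4CL2 and 4CL5, were lower in Bala (22.7%) and none higher (limma, 0 at an unadjusted p under 0.05, against 10.7%). Under drought 2, 4CL2 and CHI, were higher (12% of all genes) and 1, 4CL4, was lower in Bala (13.7%).

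**Figure D4:**
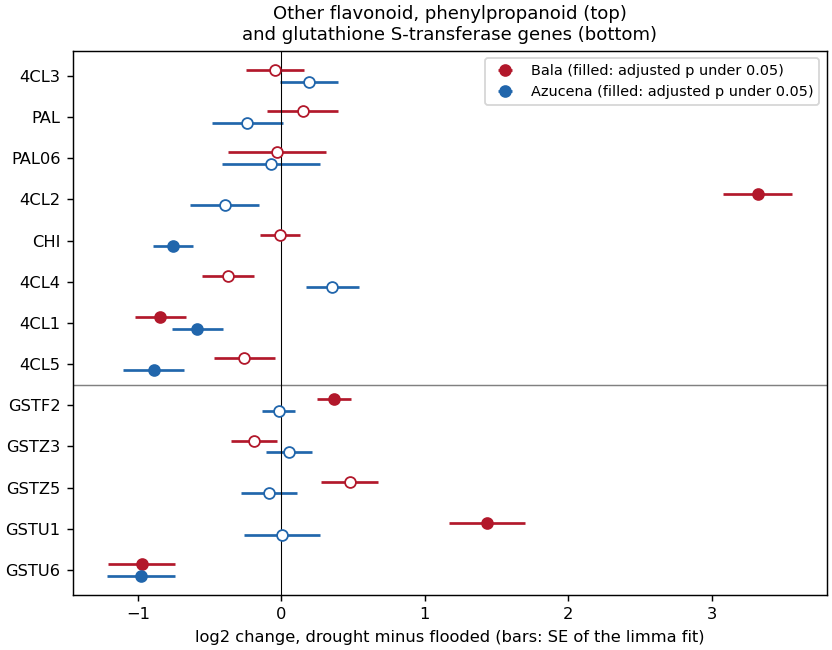
Log2 change with drought, with the SE of the limma fit, in Bala (red) and Azucena (blue) for the 8 other flavonoid and phenylpropanoid genes (top) and the 5 other glutathione S-transferase genes (bottom). Filled points have an adjusted p under 0.05, and 4CL2 (3.32) and GSTU1 (1.43) in Bala are the largest changes.

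Of the 6 genes named as glutathione S-transferases, the 5 besides GSTF1 were all tested. With drought in Bala 2 rose, GSTU1 and GSTF2, and 1 fell, GSTU6, where 27.4% of all genes tested rose and 14.1% fell. In Azucena none rose (limma, 0 also at an unadjusted p under 0.05, against 18.2% of all genes) and 1 fell, GSTU6 (17.4%). These counts of 5 genes are near the shares over all genes. GSTU1, of the plant-specific tau class, had 124, 118 and 67.9 in Bala under drought, against 21.3, 47.5 and 17.7 in flooded Bala, a log2 change of 1.43 (adjusted p = 0.00048). Its Azucena signals were 48.5, 89.6 and 60.9 under drought, against 85.1, 53.9 and 57.7 in flooded plots, a log2 change of 0.00 (adjusted p = 1). The Bala response of GSTU1 exceeded the Azucena response by 1.43 (adjusted p = 0.02), which was not called without Bala control 1 (0.06), Bala control 3 (0.053), Bala drought 1 (0.053) or Bala drought 2 (0.059). In flooded plots GSTU1 was lower in Bala, as GSTF1 was (log2 difference -0.90, adjusted p = 0.016), a call lost without Bala control 1 (0.073), Bala control 3 (0.082) or Azucena control 1 (0.07).

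GSTF2, the only other phi-class gene found by its symbol, was among the brightest genes of every array and moved little. It had 4693, 4676 and 4079 in Bala under drought, against 3052, 3891 and 3504 in flooded Bala, a log2 change of 0.37 (adjusted p = 0.024), while the Azucena change was -0.02 (adjusted p = 0.93). The rise of GSTF2 in Bala was not called without Bala control 1 (0.094), Bala drought 1 (0.089) or Bala drought 2 (0.096). GSTU6 fell alike in both cultivars, by log2 changes of -0.97 in Bala (adjusted p = 0.0041) and -0.98 in Azucena (adjusted p = 0.0047). The zeta-class genes GSTZ3 and GSTZ5 had Bala changes of -0.19 and 0.48 and Azucena changes of 0.06 and -0.09, none of them called. For GSTZ3 the dimmer of its probe sets had a log2 change of 0.53 in Bala (adjusted p = 0.042), against -0.19 on the one used, so its probe sets disagreed. The other call in flooded plots was GSTZ5, lower in Bala (log2 difference -0.70, adjusted p = 0.014), with arrays that overlapped, and not called without Bala control 1 (0.082) or Bala control 3 (0.067). Under drought none of the 5 was called (limma, 1 lower in Bala at an unadjusted p under 0.05). Of all genes, 12% were higher and 13.7% lower in Bala there. The Bala drought 3 array gave the lowest signal of its group for GSTF1, GSTF2, GSTU1, GSTU6, GSTZ3 and GSTZ5. The Bala control 2 array gave the highest of its group for the same genes except GSTZ3.

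The genes most like each member were found by the root mean square difference of gene-centred log2 values over the 12 arrays, as a description without a test. The values were not scaled, so the size of a gene's changes counts in this measure as well as their pattern. Only 5 of 15607 other genes were within 1 log2 unit of CHS1. The nearest, LOC4340788, at 0.39, had means of 3530 ± 879 in Bala under drought and 15.2 ± 9.39 in flooded Bala, and 1318 ± 179 in Azucena under drought and 1818 ± 646 in flooded Azucena (SD, n = 3 each). It shared with CHS1 a low signal in the flooded Bala arrays alone. The next were LOC4339836 (0.70), LOC4347708 (0.83), LOC4326757 (0.90), the small heat shock protein gene HSP18.0 (0.98) and MT2C (1.17), a metallothionein gene. The tables used here give no name to LOC4340788 or to the 3 LOC entries after it. HSP18.0 differed from CHS1 in Azucena, where its mean was 9224 ± 1210 under drought and 1790 ± 411 in flooded plots (SD, n = 3 each). Among genes with a name, Osr40c1, 4CL2, the beta-glucosidase gene BGLU1 and a beta-tubulin gene (OSTB-34) followed, at 1.29 to 1.36. 4CL2 was thus among the 6 nearest named genes by its whole profile.

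GSTF1 had more genes near it, 158 of 15607 within 1 log2 unit. The nearest were LOC9268195 (0.48) and EXP6 (0.50), an expansin gene whose product loosens cell walls. EXP6 had means of 330 ± 107 in Bala under drought and 13.1 ± 7.5 in flooded Bala, and 26.1 ± 4.9 in Azucena under drought and 12.3 ± 4.35 in flooded Azucena (SD, n = 3 each). The next 4, LOC4347611, LOC4346301, LOC4331957 and LOC4340980 (0.50 to 0.60), have no gene symbol in the tables used here beyond locus or clone names. Outside Bala under drought, LOC9268195, LOC4347611 and LOC4346301 were not above background on any array, and LOC4340980 was on only 1. EXP6 was above background on 1 flooded Bala array and not on any flooded Azucena array. With 16 added, such dim groups come out level, so the likeness of these genes to GSTF1 there carries no level. Among genes with a name, INO1 (inositol phosphate synthase), the starch synthase gene SS1, SSRP1-B, ARF15 (an auxin response factor) and CESA4 (secondary wall cellulose synthase) followed, at 0.74 to 0.84. CESA4 is also one of the vascular and secondary wall genes above. CHS1 and GSTF1 were 1.98 log2 units apart, and GSTF1 came 306th in the order of likeness to CHS1, while CHS1 came 14406th in that to GSTF1.

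**Figure D5:**
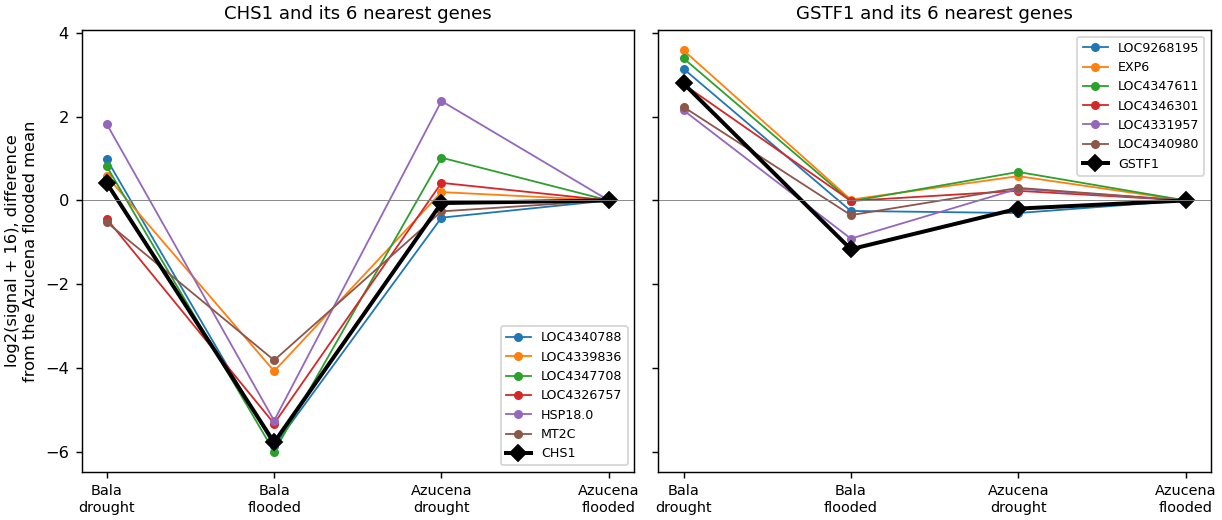
Mean log2(signal + 16) of each group, as the difference from flooded Azucena, for CHS1 with its 6 nearest genes (left) and GSTF1 with its 6 nearest genes (right). The CHS1 set is lowest in flooded Bala, and the GSTF1 set peaks in Bala under drought.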

How the data were processed

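Total RNA from 12 leaf samples was labelled with biotin and hybridised to Affymetrix rice arrays, per the labels' protocols. The deposited values are linear signal intensities, 1 per probe set and array, and MAS5 is named per the submitters' processing notes. The sources used here do not give its version, its scaling target or detection calls. Values were used as deposited, on the log2(signal + 16) scale. The 123 control probe sets were set aside, and the 33476 probe sets that exceeded the array's median on at least 3 arrays were tested with limma 3.58.1 (R 4.3.3; lmFit, then eBayes with a mean-variance trend), with a mean for each group and Benjamini-Hochberg adjustment over all of them at 0.05. This fit was checked on simulated data. Tables and plots used pandas 2.3.3 and matplotlib 3.10.9.

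Gene names come from the platform's gene table and from that of RefSeq (assembly ASM3414082v1), which give no product names, so lists rest on symbols and synonyms. No coordinates are printed, since the array's table names no genome build. A gene other than the members is read from its probe set with the highest mean log2 value. All probe sets of CHS1 and GSTF1, every listed gene and the 6 nearest genes and 6 nearest named genes to each member are given. These members and lists were chosen with earlier results of these data known. Lower bounds use signals without the added 16, set on each array against background or the dim signal itself, whichever was higher. No 2 arrays held mostly identical values (0 pairs). The replicates are called biological, and nothing ties their numbers to field blocks. Deviations from the group mean correlated between -0.11 and 0.22 in same-numbered samples, and not above 0.1 in most, so the numbers were not taken as pairs. Probe sets ending in _x_at or _s_at can share sequence with other genes, and probes that differ from a cultivar's sequence can lower its signal. Neither was tested.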

Additional observations from a re-analysis of the deposited data

Results flagged for a closer look

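For 3 genes of the lists the drought response differed between the cultivars by a test of the difference itself (limma, Benjamini-Hochberg adjustment over all probe sets tested). They came from 8 flavonoid and phenylpropanoid genes and 5 glutathione S-transferase genes tested besides the members. All 3 were called higher in Bala, where 9.82% of all genes tested were called higher and 5.13% lower. For 4CL2 the Bala response exceeded the Azucena response by 3.72 on the log2 scale (adjusted p = 3.7e-06), with all 3 Bala drought arrays above all flooded Bala arrays. For GSTU1 it was larger by 1.43 (adjusted p = 0.02), again with all 3 Bala drought arrays above all flooded ones, but the call was lost without any 1 of 4 Bala arrays and with no filter (adjusted p between 0.053 and 0.062). For CHI it was larger by 0.75 (adjusted p = 0.019), where all 3 Azucena drought arrays were below all flooded Azucena arrays, and the call was lost without any 1 of 3 arrays (adjusted p between 0.05 and 0.062). The same difference for CHS1 and GSTF1 was used to choose them and is not counted here.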

How the results depend on the processing

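The direction of the Bala drought response, of the difference of responses and of both cultivar differences was the same for CHS1 and GSTF1 under quantile normalization, median centring, spike-in centring, an added 1 or 64 in place of 16, and without each array in turn. The size depended on the added constant. With 1 added, CHS1 changed by 6.73 in Bala, differed by 6.79 between responses and by -6.31 in flooded plots, and with 64 added by 5.21, 5.27 and -4.80. GSTF1 with 64 added changed by 3.27, differed by 3.42 between responses and by -0.80 in flooded plots. The small Azucena change of CHS1 took either sign (-0.22 to 0.14 without 1 array, 0.01 with spike-in centring), and that of GSTF1 lay between -0.36 and 0.01 without 1 array.

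Without 1 array the flavonoid list had 1 to 3 genes called in the difference of responses. The glutathione S-transferase list had 0 to 2 in that difference, 0 to 4 in flooded plots and 0 to 1 under drought. It had 2 called in the difference of responses after quantile normalization and 0 with no filter, and with spike-in centring 4 in flooded plots and 1 under drought. The causes were not tested. 4CL1 in Azucena was not called with spike-in centring (adjusted p = 0.068) or no filter (0.056). GSTF2 in Bala was not called with no filter (0.068) or without the mean-variance trend (0.081), nor was the difference of responses of GSTU1 with no filter (0.062). 4CL2 under drought was not called with 1 added (0.1). With a replicate block 10790 probe sets were called in Bala, against 10567 without it, and 4039 in the difference of responses, against 3794, and no call of a listed gene was lost, with 3 in place of 2 glutathione S-transferase genes called in flooded plots. Signal near background limits what can be said of flooded Bala for CHS1 and 4CL2.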

Other observations

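Genes near CHS1 and GSTF1 on their chromosomes, in the order of RefSeq's gene table, were read as well, a choice made after the members' values were known. For each member the 5 nearest tested genes on each side were taken. They lay 3 to 17 places from CHS1 and 6 to 24 from GSTF1, so the genes directly beside the members were not read. Of the 10 neighbours of CHS1, 5 rose and 1 fell with drought in Bala, where 27.4% of all genes rose and 14.1% fell. In Azucena 0 rose (limma, 1 at an unadjusted p under 0.05) and 3 fell, where 18.2% and 17.4% of all genes did. The difference of responses was called higher in Bala for 4 of these 10 and lower for 0 (limma, 0 at an unadjusted p under 0.05), where 9.82% and 5.13% of all genes were. The highest such difference was 1.58 (LOC4350631), against 6.25 for CHS1. In flooded plots 4 of the 10 were lower in Bala and 1 higher (22.7% and 10.7% of all genes), with LOC4350638 at -2.90. Of the 10 neighbours of GSTF1, 3 rose and 3 fell in Bala, and 1 rose and 2 fell in Azucena, against the same shares over all genes. In the difference of responses 1 was called higher and 2 lower (9.82% and 5.13% of all genes), with values from -2.12 to 0.83. None of these 20 tested neighbours had a difference of responses close to that of its member. The members were chosen for that difference and ranked 2 and 11 in it among 15608 genes. Nearly any gene would fall short of them, so this gap says nothing about the neighbourhood.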
